A study of Mus musculus with 2 samples.

Results

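The major urinary proteins (Mup genes) were examined in the liver of mice without and with Iah1, which encodes a homologue of a yeast isoamyl acetate esterase. The members were all probe sets whose platform annotation names at least 1 symbol made of Mup and a digit, which gave 7 of the 41345 probe sets of the array, naming 12 of 23981 genes. The study holds 2 arrays, 1 for Iah1-KO and 1 for Iah1-WT, and each carried liver RNA pooled from 3 male mice. Both groups received chow until 6 weeks of age and high-fat food for the next 12 weeks, were kept 1 mouse per cage, and were killed between 13:00 and 14:00 after 4 hours without food. The knockout is described as systemic, so every tissue lacked the gene, and the labels used here give no strain. Each pool was measured once, so the values below carry no replicate error and the genotypes were not tested against each other.

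Major urinary proteins are small lipocalins, barrel-shaped carriers of hydrophobic ligands, that hepatocytes secrete into blood and that pass into urine, where they bind and release pheromones. Their liver transcripts are abundant in male mice and are known to depend on pulsed growth hormone, androgens, thyroid hormone and glucocorticoids, and Mup1 has been linked to glucose and lipid metabolism in obese mice. The genes form a tandem cluster on chromosome 4, with a central block of near-identical copies and more divergent genes towards its edges. Mup20 encodes darcin, a male pheromone that attracts females, and Mup5 is known chiefly from salivary and lacrimal glands.

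The 7 probe sets named 12 of the 22 protein-coding Mup genes in the RefSeq table of GRCm38.p6. Mup3, Mup5, Mup6, Mup20 and Mup21 each had a probe set of their own. The other 2 probe sets named 4 genes each, one Mup10, Mup11, Mup18 and Mup22 and the other Mup9, Mup16, Mup19 and Mup22. No probe set named Mup1, Mup2, Mup7 or any of the remaining 7 genes, so these were not analysed here. A probe set that names several copies measures their joint signal, and a probe set that names 1 gene can still share probes with a copy, so single genes of the central block are uncertain.

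Sequences of the copies were compared for their promoters only. Promoters are shown here for 1 gene from each shared probe set (Mup11 and Mup19) and for the single-gene probe sets of Mup3 and Mup21. Transcripts and probes were not compared, so likeness of promoters need not be likeness on the array. The windows are RefSeq's for GRCm38.p6, all on the minus strand, from 250 bases before to 50 bases after a gene start, and the capitals mark TATATAA on either strand. Their positions are chr4:60662346-60662645 for Mup11, chr4:61782175-61782474 for Mup19, chr4:62087268-62087567 for Mup3 and chr4:62150792-62151091 for Mup21.
Mup11: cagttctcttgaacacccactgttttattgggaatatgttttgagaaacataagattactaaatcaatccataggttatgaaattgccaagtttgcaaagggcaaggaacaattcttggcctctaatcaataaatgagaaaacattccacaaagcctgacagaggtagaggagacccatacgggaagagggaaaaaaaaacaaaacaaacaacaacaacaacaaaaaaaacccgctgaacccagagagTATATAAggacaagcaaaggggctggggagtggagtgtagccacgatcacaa
Mup19: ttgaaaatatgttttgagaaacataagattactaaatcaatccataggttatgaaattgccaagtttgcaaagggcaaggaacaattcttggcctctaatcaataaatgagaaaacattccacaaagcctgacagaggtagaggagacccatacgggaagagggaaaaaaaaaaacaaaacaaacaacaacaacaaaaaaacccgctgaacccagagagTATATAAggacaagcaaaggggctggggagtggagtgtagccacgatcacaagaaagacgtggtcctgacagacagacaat
Mup3: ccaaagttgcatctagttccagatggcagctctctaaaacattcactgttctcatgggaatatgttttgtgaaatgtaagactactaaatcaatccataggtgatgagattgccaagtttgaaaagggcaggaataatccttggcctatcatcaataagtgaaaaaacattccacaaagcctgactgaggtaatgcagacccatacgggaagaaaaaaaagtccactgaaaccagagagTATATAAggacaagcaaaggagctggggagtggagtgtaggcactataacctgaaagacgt
Mup21: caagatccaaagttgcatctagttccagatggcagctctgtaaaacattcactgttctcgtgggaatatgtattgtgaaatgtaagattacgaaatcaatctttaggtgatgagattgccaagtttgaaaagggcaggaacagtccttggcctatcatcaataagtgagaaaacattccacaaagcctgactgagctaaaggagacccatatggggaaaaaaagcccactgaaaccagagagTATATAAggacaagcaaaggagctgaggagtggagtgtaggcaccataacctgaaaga

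Promoter windows were found for 8 of the 12 named genes. The Mup11 and Mup19 windows matched at 99.3% of 269 aligned bases, and Mup3 and Mup21 at 93.9% of 294 aligned bases. Across these pairs the match was lower, at 87.5% of 265 aligned bases for Mup11 with Mup3. Mup11 with Mup19 was the closest of all pairs compared. Mup10 and Mup18, named by the same probe set, matched at 93.4% of 290 aligned bases, slightly less than Mup3 and Mup21. TATATAA lay in all 8 windows, against 3.24% of 32851 promoter windows of the same table. Neither TTCNNNGAA, the letters of a STAT site, nor TTGCNNAA, those of a C/EBP site, was found in any of the 8 windows, on either strand. These letters occurred in 8.30% and 10.8% of all windows. For 8 windows, a count of 0 lies near those shares. The 8 windows are also close copies, with matches from 85.1% to 99.3%. None of these counts, that of TATATAA included, therefore rests on 8 separate cases.

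The deposited values are log2 signals from RMA, a procedure that removes background, equalises the distributions of the arrays and combines a probe set's probes into 1 value. An intensity filter was set at the median of all probe sets' higher values, 4.26 on the log2 scale, and 5 of the 7 Mup probe sets passed it. Levels of different probe sets cannot be ranked as levels of RNA, because probes differ in brightness. The loss of Iah1 itself was plain, at 3.90 in KO and 8.59 in WT on the log2 scale, with the KO value below the filter and so at least 20.1-fold lower.

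The Mup genes did not share a difference of that kind. Mup3, one of the divergent genes, was at 12.96 in KO and 13.10 in WT on the log2 scale. The difference of -0.15 (KO minus WT, log2) made Mup3 1.11-fold lower in KO. Mup20 was at 12.07 in KO and 12.09 in WT, a difference of -0.03. The darcin gene was thus 1.02-fold lower in KO.

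The probe set of Mup10, Mup11, Mup18 and Mup22 was at 8.73 in KO and 8.79 in WT, a difference of -0.06 or 1.04-fold lower. That of Mup9, Mup16, Mup19 and Mup22 was at 8.38 in KO and 8.28 in WT, a difference of 0.10 or 1.07-fold higher. The shared probe sets thus differed in sign although both name Mup22, and the gap between their differences was 0.16 on the log2 scale. Mup21, at the edge of the cluster, was at 8.14 in KO and 7.97 in WT. Its difference of 0.17, or 1.12-fold higher in KO, was the largest of the 7 in size in the deposited values.

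Mup6 and Mup5 lay below the filter in both arrays. The Mup6 probe set was at 2.84 in KO and 2.78 in WT, and the Mup5 probe set at 2.57 in KO and 2.67 in WT. Neither value is shown to be above background, so no fold is given for these genes. Of 6 salivary and lacrimal gland markers, 5 had a probe set of their own and 2 passed the filter, Amy1 at 0.08 and Dcpp1 at -0.44 (KO minus WT, log2). The median of these 2 was -0.18, and it turned positive without an intensity filter (0.04) and with the filter at the 75th percentile (0.08). Dcpp1 passed only through WT (4.63), where it was high, and lay below the filter in KO (4.19). No direction is therefore read from the median of -0.18. Amy1, an amylase gene, is also expressed in liver.

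**Figure D1:**
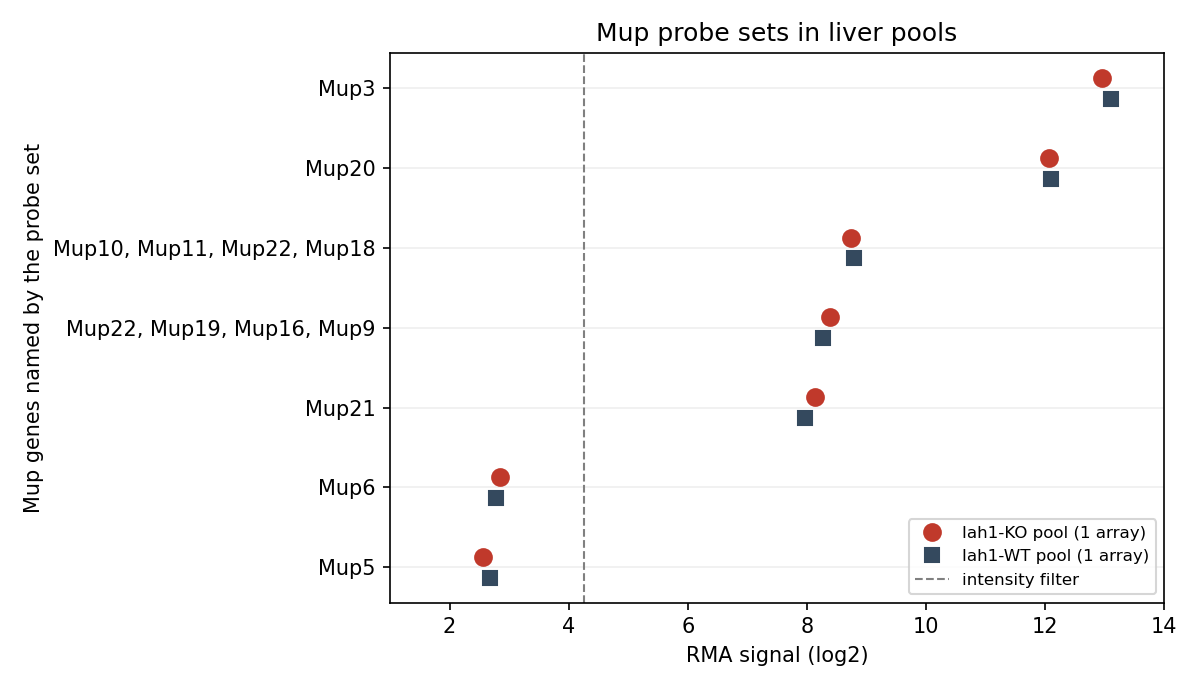
Log2 RMA signal of each Mup probe set in the Iah1-KO pool (circles) and the Iah1-WT pool (squares), 1 array each, with the intensity filter of 4.26 as a dashed line. The KO and WT symbols nearly coincide for all 7 probe sets, and Mup6 and Mup5 lie below the filter in both arrays.

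Over the 5 probe sets above the filter the median difference was -0.03 and the mean 0.01 on the log2 scale, with 2 above 0 and 3 below. All 20673 probe sets above the filter had a median of -0.01, and 47.4% of them were above 0 and 52.6% below. No Mup probe set reached 1.5-fold (0.58 on the log2 scale) in either direction, a size that 10.8% of all probe sets above the filter reached. None reached 1.2-fold (0.26 on the log2 scale) either, and 34.9% of all did. These shares cover probe sets of any signal above the filter, whether or not they had a gene symbol. Of the genes above the filter, 4.58% reached 1.5-fold. Probe sets as bright as those of Mup3 and Mup20 had narrower differences, given below, so these counts do not show that the Mup genes were unusually stable. The Mup differences spanned 0.31 from lowest to highest. With 1 array per genotype, a true difference between genotypes smaller than the unmeasured spread between mice cannot be told from none.

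Probe sets of the same gene give the one error that can be taken from these arrays. Their disagreement had a standard deviation of 0.27 on the log2 scale for a single difference (443 genes with several probe sets above the filter). Each of the 7 Mup differences was smaller than that. This error covers measurement by different probes and leaves out mice, labelling and hybridisation. It was taken over genes of any signal, while differences of bright probe sets were narrower.

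Set against other probe sets of similar signal, Mup3 stood at the edge and the others did not. Among the 60 other probe sets whose mean signal lay within 0.5 of that of Mup3 on the log2 scale, the middle 90% of the differences ran from -0.06 to 0.10, and none was as low as the -0.15 of Mup3. Within 1 on the log2 scale, all 100 others were above Mup3, and 4 of them lay farther from 0 on the higher side. For Mup20, 23 of 99 others within 0.5 were lower, and the middle 90% ran from -0.11 to 0.16. For Mup21, 271 of 2198 others were higher. The shared probe sets lay inside the middle 90% of their neighbours in signal as well, at -0.31 to 0.27 for the one of Mup10, Mup11, Mup18 and Mup22 and -0.35 to 0.27 for the one of Mup9, Mup16, Mup19 and Mup22. This comparison was chosen after the values were seen, and it gives places among probe sets of 2 arrays, not tests of the genotypes.

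Mup3 also lay close to the top of the scale, 0.55 below the highest value of the KO array and 0.39 below that of the WT array. Whether its probes were near saturation, which would narrow a difference, was not tested. The shared probe set of Mup10, Mup11, Mup18 and Mup22 lay 4.77 below the highest KO value and 4.70 below the highest WT value.

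**Figure D2:**
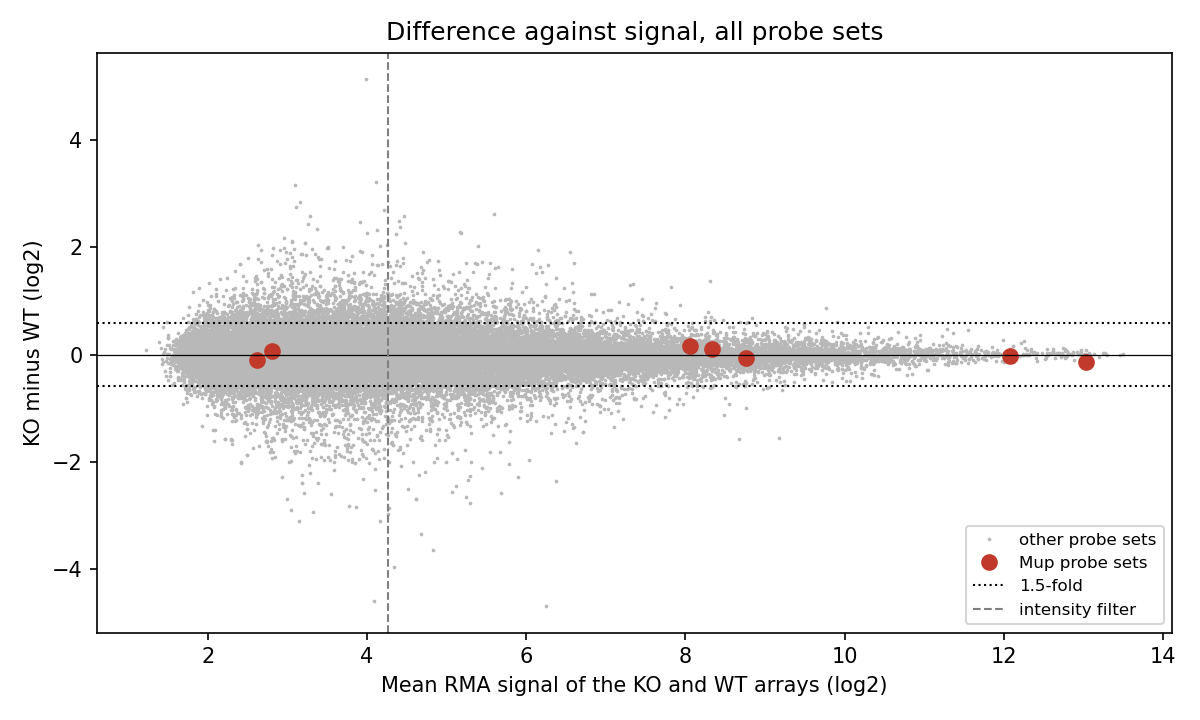
Difference (KO minus WT, log2) against the mean signal of the KO and WT arrays for every probe set (grey) and for the 7 Mup probe sets (red), with dotted lines at 1.5-fold and a dashed line at the intensity filter. All 7 Mup points lie between the dotted lines, and Mup3, at the far right, lies at the lower edge of the narrow band of bright probe sets.

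Genes next to the cluster differed in both directions. Of the 5 nearest protein-coding genes on each side in the RefSeq order, 8 of 10 passed the filter, 4 above 0 and 4 below, none past 1.5-fold, which 4.58% of the 12763 genes above the filter reached either way. For 8 genes, a count of 0 past 1.5-fold lies near that share. The median of these 8 genes was -0.01 on the log2 scale. On the Mup4 side, Hsdl2 differed by 0.12, E130308A19Rik by -0.44, Inip by 0.26 and Snx30 by -0.02, and on the Mup21 side Slc31a2 by -0.34, Fkbp15 by 0.27, the copper transporter gene Slc31a1 by 0.00 (0.0031) and Cdc26 by -0.09. Slc46a2 and Zfp37 lay below the filter in both arrays.

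The growth hormone pathway that sets the male level of Mup transcripts was compared through lists chosen with earlier results of these data known. Of 15 male-biased liver genes, 14 passed the filter, with a median of -0.30, 11 below 0 (54.2% of all genes were), 3 above 0 (45.8% of all genes were) and 1 lower by 1.5-fold or more (2.66% of all genes were). That gene was the steroid dehydrogenase gene Hsd3b5, at 6.95 in KO and 7.59 in WT. The elongase gene Elovl3 differed by -0.30, the organic anion transporter gene Slco1a1 by -0.25, the fatty acid hydroxylase gene Cyp4a12a by -0.47, the antitrypsin gene Serpina1e by -0.49 and the steroid hydroxylase gene Cyp2d9 by 0.04. These 14 genes ran from -0.65 to 0.17, and the 5 Mup probe sets above the filter from -0.15 to 0.17. The first range holds the second only narrowly, with Cyp2u1 at 0.166 and Mup21 at 0.165. The male-biased median of -0.30 lay below the lowest Mup difference. A difference between the Mup probe sets and these genes was not tested.

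Of 16 female-biased genes, 14 had a probe set of their own and 10 passed the filter, with a median of 0.18 and a mean of -0.01, 6 above 0 (45.8% of all genes were), 1 higher (1.93%) and 2 lower (2.66%) by 1.5-fold. The gene higher by 1.5-fold was Cyp17a1, and those lower were Cyp3a44 and Cyp2c40, both below the filter in KO. Prom1, among the 6 above 0, was at 4.36 in KO and below the filter in WT (3.85). All of these were chosen after their values were seen. Cyp3a44, Cyp2c40 and Prom1 thus passed only through the array where they were high. Without an intensity filter the median was 0.19. Cyp2b9 differed by 0.09 and Cux2, a female-specific repressor, by 0.32. Sult2a1 and A1bg were below the filter, and Cyp3a41a had no probe set of its own.

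Of 18 genes of the growth hormone receptor, its signalling and liver regulators, 17 passed, with a median of -0.10. Of these, 14 were below 0 (54.2% of all genes were), 1 was higher by 1.5-fold or more (1.93% of all genes were) and 2 were lower (2.66% of all genes were). The receptor gene Ghr differed by -0.00 (-0.00289), the kinase gene Jak2 by -0.15, Stat5a by -0.10, Stat5b by -0.27 and the growth hormone target Igf1 by -0.30. The feedback inhibitor gene Socs2 was at 5.08 in KO and 5.96 in WT, with its 2 probe sets at -1.29 and -0.46, and Cish differed by -0.07, with 2 probe sets of opposite sign at -0.66 and 0.52. Bcl6, a repressor of STAT5 target genes, was at 8.06 in KO and 7.18 in WT, 1.83-fold higher, and Onecut1, a regulator of sex-biased liver genes that was chosen after its value was seen, was 2.23-fold lower. Genes of other hormones that act on Mup transcription differed little, with the glucocorticoid receptor gene Nr3c1 at -0.01, the thyroid hormone receptor genes Thrb at 0.06 and Thra at 0.00 (0.00195), which was also the median of the 3 genes measured.

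Other lipocalins and secreted hepatocyte proteins were compared as well. Of 11 other lipocalin genes, 9 passed the filter, with a median of 0.02, a mean of -0.15 and 1 lower by 1.5-fold (2.66% of all genes were), the acute phase gene Orm3, chosen after its value was seen. The retinol carrier gene Rbp4 differed by 0.09, the apolipoprotein gene Apom by 0.07, Ambp by 0.02, Orm1 by -0.05 and the siderophore-binding Lcn2 by -0.25, and Lcn13 had no probe set of its own. Of 14 abundant secreted proteins, 13 passed, with a median of 0.00 (0.0022) and none past 1.5-fold (4.58% of all genes were). For 13 genes, a count of 0 lies near that share. Alb differed by -0.01, Ttr by 0.01 and Apoa1 by 0.01, and Trf had no probe set of its own.

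**Figure D3:**
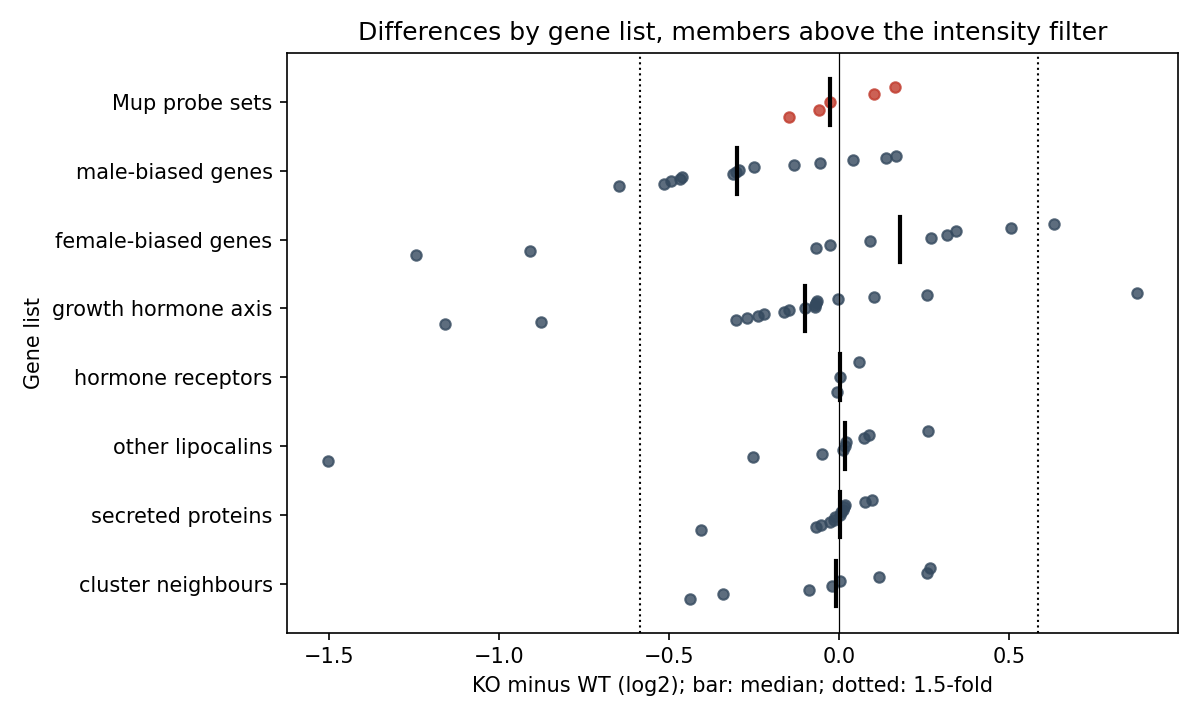
Difference (KO minus WT, log2) of every member above the intensity filter, for the Mup probe sets (red) and the compared gene lists (dark), with the median as a bar and 1.5-fold as dotted lines. The 5 Mup points run from -0.15 to 0.17 around a median of -0.03. The male-biased genes run from -0.65 to 0.17 around a median of -0.30, which lies below every Mup point.

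The arrays held the marker transcripts of liver. All 9 hepatocyte markers, the cells that make Mup transcripts, passed the filter, with a median of -0.01 and a range of -0.13 to 0.04. Their summed linear signal was 45035 in KO and 45935 in WT. Of all genes above the filter, 54.2% lay below 0, 1.93% were higher by 1.5-fold or more and 2.66% were lower. Markers of sinusoidal endothelium were lower in KO in 8 of 8 genes (median -0.51, range -0.83 to -0.36, 3 past 1.5-fold, summed linear signal 1787 in KO and 2560 in WT), and those of macrophages and Kupffer cells in 9 of 9 (median -0.47, range -0.81 to -0.09, 3 past 1.5-fold, summed linear signal 1329 in KO and 1947 in WT). In such tissue RNA fewer cells of a type and less RNA per cell cannot be told apart, and the part of these cells in the Mup values was not tested. Of 7 stellate cell markers, 5 were below 0 and none was lower by 1.5-fold (median -0.14, mean -0.04, range -0.52 to 0.93), and the 1 past 1.5-fold was the desmin gene Des, higher in KO at 4.68 against 3.75 in WT, where it lay below the filter (chosen after its value was seen). Of 5 cholangiocyte markers 2 passed the filter (median -0.50), Sox9 at -0.17 and Epcam at -0.83. Epcam passed only through WT (4.35), where it was high, and lay below the filter in KO (3.52). Krt19 at 0.03 and Krt7 at 0.20 were below the filter in both arrays, so no direction is read from that median. Of 6 lymphocyte markers 1 passed the filter (0.11).

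Genes whose pair of values lay nearest to the median Mup point, 8.73 in KO and 8.79 in WT, were Prxl2a, Slc16a10, Emc2, Tcea3 and Tomm70a, at distances between 0.010 and 0.030 on the log2 scale. That point is the shared probe set of Mup10, Mup11, Mup18 and Mup22, the middle one of the 5 above the filter in both arrays. The genes are thus near that probe set, whose difference was -0.06, and not near the family as a whole. The likeness rests on 2 arrays and on probe sets of different brightness.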

How the data were processed

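Liver RNA of 3 pooled mice per genotype was hybridised to 1 Affymetrix array each, from 100 ng of total RNA, per the labels' protocols. The authors' deposited table holds log2 values made with RMA and Affymetrix Expression Console 1.3.0, per the submitters' processing notes. RMA equalises the arrays' distributions, which removes a shift shared by all transcripts. The sources used here give no genome build for the probe sets.

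Differences are KO minus WT. Gene list values are means of a gene's single-symbol probe sets (23521 of 41345 had 1 symbol). The filter asked for 4.26 or more in the higher array. RefSeq served for names, gene order and promoter windows, which were aligned with Biopython 1.88 (global, no end gap penalty). With 1 array per genotype no test was made, and the number of arrays limits the precision. Members and lists (male-biased, female-biased, growth hormone axis, hormone receptors, lipocalins, secreted proteins, cluster neighbours, cell markers) were chosen with earlier results of these data known, and genes are named by role within them, with exceptions marked. Counting was tested on simulated data. Alternatives were removal of a loess trend in signal (span 0.4), a further quantile normalization, centring, other filters and fold thresholds, the mean, single-gene probe sets and a gene's brightest probe set.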

Additional observations from a re-analysis of the deposited data

How the results depend on the processing

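No Mup probe set passed the threshold under any of the 7 alternatives tried for that count, including 1.2-fold and no filter. Among these, the 2-fold threshold and the filter at the 75th percentile could not have raised the count from 0. The median Mup difference of -0.03 ranged from -0.04 to 0.01 and changed sign under the mean (0.01). Each of the 7 Mup differences kept its sign under the 3 rescalings, with Mup3 between -0.17 and -0.13, Mup20 (-0.03 as deposited) between -0.06 and -0.01 and Mup21 between 0.18 and 0.19. The male-biased median stayed between -0.30 and -0.26 over 7 alternatives, while the female-biased median turned to -0.01 and the lipocalin median to -0.15 as means. Taking the brightest probe set could not change the male-biased median, because each of those genes had 1 probe set. The median of cholangiocyte markers moved to -0.068 without an intensity filter, where dimmer markers enter the list. No paired analysis was possible because each genotype has 1 array, and for the same reason no array could be left out.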
